A study of Danio rerio with 9 samples.

Results

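Of the 55393 transcripts in the mRNA table of zebrafish caudal fin, 80 stood highest at 7 days after amputation (7 dpa). The fins were from wild-type fish, and 3 groups of 3 libraries were compared: intact fins, regenerating fins at 3 dpa and regenerating fins at 7 dpa. Nothing used here states age, sex or the number of fish behind a library. The p-values therefore cover only the spread among these 9 libraries, and that spread may be technical. The 80 members were chosen from the measured values of all 9 libraries. On the log2(signal + 1) scale their 7 dpa mean lay at least 0.6 above the intact fin mean and at least 0.6 above the 3 dpa mean. Their mean 7 dpa signal was at least 3, and every 7 dpa library lay above all 6 others. The height at 7 dpa is therefore the rule and not a finding, and it was not tested.

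A zebrafish caudal fin that is cut grows back its bony rays, skin, vessels and nerves. A wound epidermis first covers the stump, and a mass of proliferating cells, the blastema, forms beneath it. Outgrowth follows, in which cells near the stump differentiate and lay down bone matrix while cells of the blastema go on dividing. Both 3 dpa and 7 dpa lie within regrowth. A transcript that is highest at 7 dpa is thus one whose signal was lower both before the cut and early in regrowth. No later time was sampled, so whether its signal then fell, held or rose further is not known. In such bulk tissue, fewer cells of a type and less RNA per cell cannot be told apart.

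The files do not pair the transcript IDs with gene names, and 0 of the 80 members matched the name tables used. Members are therefore described by ID, class and signal, no role is given to any of them, and no sequence is printed. The tissue label could not be checked against marker genes for the same reason. An ENSDART ID marks an annotated transcript and a TCONS ID an assembled one. Signals are the deposited values. Whether they are scaled per transcript length is not stated, so an order of members by signal is an order of these values and not of transcript number.

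The mRNA signal summed to between 406536 and 441930 per library, and sequencing depth is unknown. Replicates of each group differed in their values, and none was a copy of another. Of the 25001 transcripts with a signal of at least 1 in at least 3 libraries, the 7 dpa group mean was the highest of the 3 in 4485, in the middle in 16011 and the lowest in 4499. The members come from the first of these sets.

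The class highest at 7 dpa was small beside the classes highest in the other groups. Under the same rule with the groups exchanged, 1320 transcripts were highest at 3 dpa and 1447 in intact fin. The order of these 2 counts turned with median-ratio factors, which gave 1659 and 1171, while 74 transcripts were then highest at 7 dpa. As a share of the transcripts with a mean signal of at least 3 in the group concerned, these were 0.537% at 7 dpa (80 of 14884), 9.11% at 3 dpa and 9.51% in intact fin. The gap to the nearer of the other groups had a median of 0.78 on the log2(signal + 1) scale for the members, 0.83 for transcripts highest at 3 dpa and 0.84 for those highest in intact fin. Its largest value was 2.30, 3.50 and 4.29 in the same order. A gap of at least 1 was reached by 20 members (25%), by 31.4% of those highest at 3 dpa and by 31.8% of those highest in intact fin. These are descriptions of classes chosen by value, and no difference between them was tested.

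**Figure D1:**
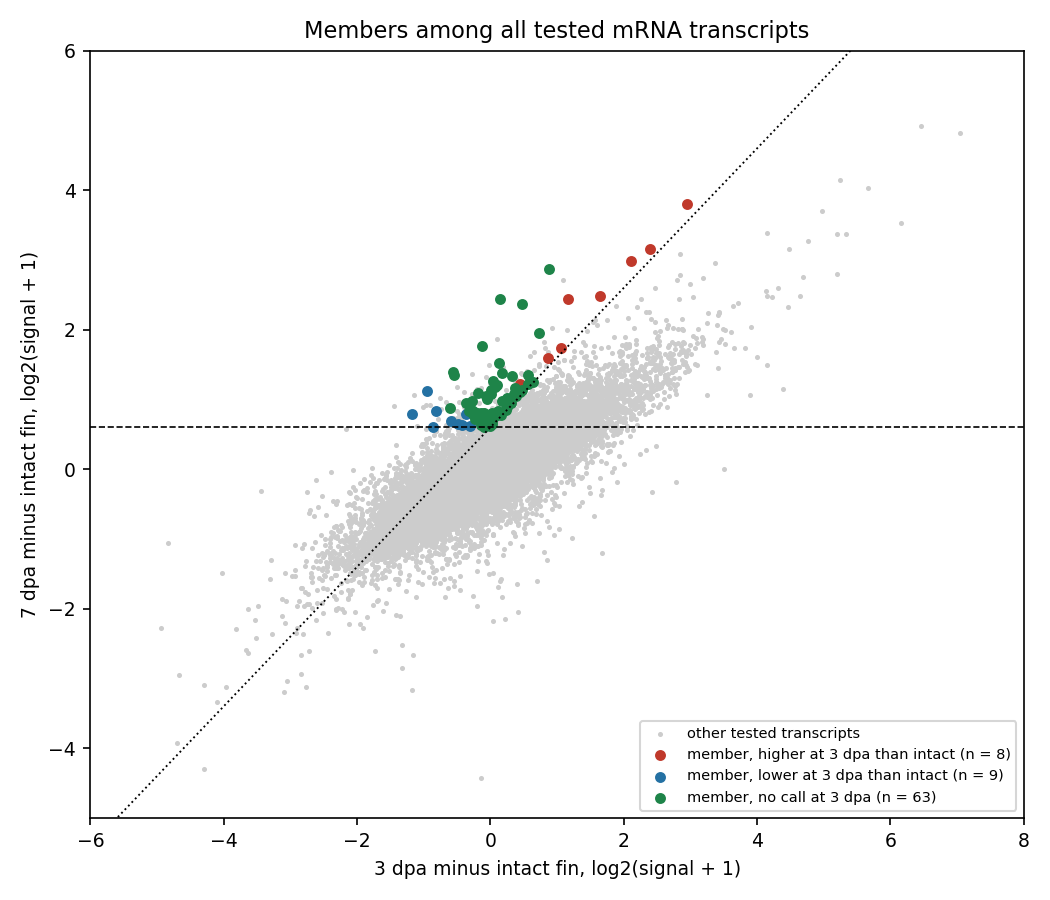
Change at 3 dpa (x axis) and at 7 dpa (y axis) against intact fin, both as differences of group means of log2(signal + 1), for the 25001 tested transcripts. The dashed and dotted lines are the bounds of 0.6 to intact fin and to 3 dpa, and the members lie above both, with 63 of the 80 in green for no limma call at 3 dpa.

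Most members were of low or moderate signal. The mean 7 dpa signal ran from 3.03 to 835 with a median of 10.3. It was under 10 in 39 members, from 10 to under 100 in 37 and at least 100 in 4. The fold of the 7 dpa mean signal over the intact fin mean had a median of 2.12, and over the 3 dpa mean a median of 2.04. The first leaves out 2 members at 0 in all intact fins, and the second 1 member at 0 in all 3 dpa libraries. The nearer group was intact fin for 34 members and 3 dpa for 46. Together the members held 0.328% ± 0.032 of the mRNA signal of intact fins (SD, n = 3), then 0.281% ± 0.033 at 3 dpa, and 0.679% ± 0.030 of it at 7 dpa. A single transcript, ENSDART00000062587, made up a large part of that share. Without it the shares were 0.216% ± 0.024, 0.229% ± 0.024 and 0.480% ± 0.010.

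The 7 dpa libraries were close to the others in many members. The lowest 7 dpa signal was 1.01 to 1.99 times the highest signal among the 6 other libraries, with a median of 1.31. It was under 1.1 times in 8 members and at least 1.5 times in 16. Next to the bounds of the rule, the smallest log2 difference to intact fin was 0.60 among members, and the nearest transcript that missed on this bound alone stood at 0.598. To 3 dpa these values were 0.609 inside and 0.585 outside. The mean 7 dpa signal was 3.03 in the lowest member and 2.96 in the nearest transcript outside. The ratio of the lowest 7 dpa signal to the highest other was 1.01 inside and 0.973 outside. Transcripts that missed on a single bound numbered 48 for the difference to intact fin, 85 for the difference to 3 dpa, 36 for the level and 58 for the separation of libraries.

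**Figure D2:**
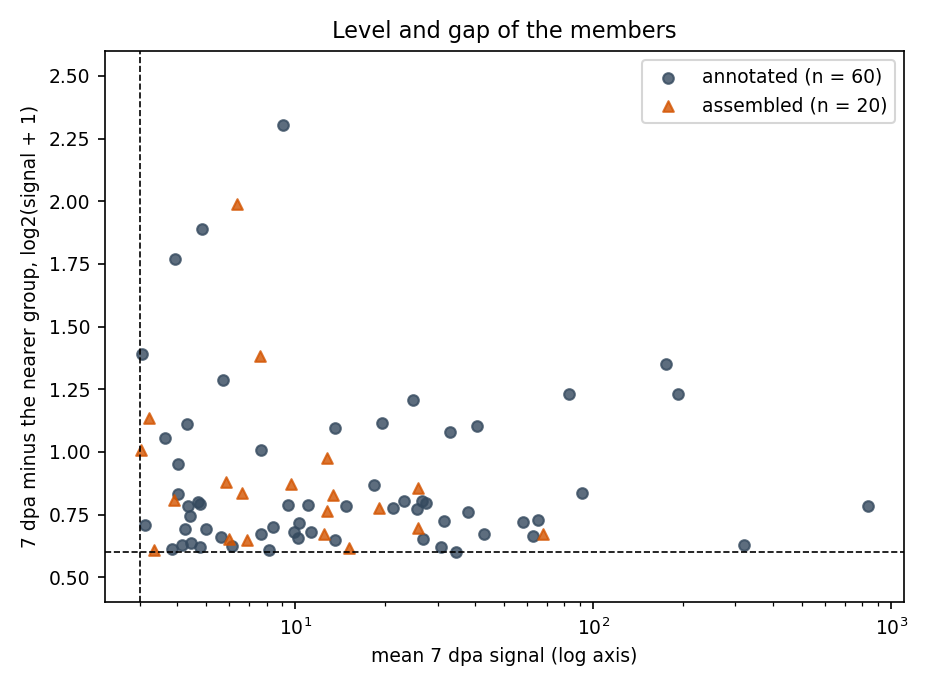
Mean 7 dpa signal (x axis, log scale) and the log2 difference of 7 dpa to the nearer of the other groups (y axis) for the 60 annotated and 20 assembled members. Dashed lines are the bounds of 3 and 0.6, and the 4 largest gaps, all over 1.5, belong to members with a mean signal under 10.

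Of the members, 60 were annotated and 20 assembled. Assembled transcripts were 25% of the members and 16.6% of all transcripts with a mean 7 dpa signal of at least 3 (2470 of 14884). They were 10.8% of the transcripts highest at 3 dpa and 23.4% of those highest in intact fin. Within the members both classes had similar values, with median gaps of 0.78 for annotated and 0.82 for assembled ones and median 7 dpa signals of 10.7 and 8.62. Transcripts of a locus can share reads, so no test was made of these shares.

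The member with the highest 7 dpa signal was ENSDART00000062587. Its libraries read 534, 477 and 441 in intact fins, 216, 252 and 177 at 3 dpa and 870, 878 and 757 at 7 dpa. None of the groups overlapped, and the order was 3 dpa, intact fin and 7 dpa. The second in signal, ENSDART00000132206, had 220, 199 and 200 in intact fins, 148, 179 and 137 at 3 dpa and 312, 304 and 344 at 7 dpa. It followed the same order with smaller steps. Both were called lower at 3 dpa than in intact fin, by -1.18 (SE 0.13, limma adjusted p = 9.31e-05) and by -0.42 (SE 0.10, limma adjusted p = 0.00782) on the log2(signal + 1) scale.

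ENSDART00000172414 had the largest gap among members with a mean 7 dpa signal of at least 10. Its signals were 77.9, 107 and 35.4 in intact fins, 41.0, 69.6 and 33.2 at 3 dpa and 154, 226 and 145 at 7 dpa. Intact fins and 3 dpa overlapped, and both spread widely. Its gap was 1.35 and fell to 0.90 without intact fin replicate 3. ENSDART00000075514 was next, with 43.2, 51.2 and 17.4 in intact fins, 32.1, 36.5 and 35.8 at 3 dpa and 82.5, 79.6 and 87.1 at 7 dpa. The 7 dpa and 3 dpa libraries were tight, and intact fin replicate 3 was again the lowest of its group. Its gap of 1.23 fell to 0.81 without that library.

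Low values in single libraries recurred among the members, most often in intact fin replicate 3. In 9 of the 80 its signal was lower by at least 2-fold than both other intact fins, against 1.39% of all transcripts with a mean 7 dpa signal of at least 3. For intact fin replicate 1 it was 6 members against 0.961%, and for replicate 2 it was 0 members against 1.18%. At 3 dpa it was 2 members against 0.739% for replicate 1, 3 against 0.941% for replicate 2 and 6 against 0.813% for replicate 3. High values in single libraries recurred too. Intact fin replicate 1 was at least 1.5 times both other intact fins in 9 members, against 2.16% of all such transcripts. For replicate 2 it was 4 against 1.96%, and for replicate 3 it was 5 against 1.67%. At 3 dpa it was 4, 3 and 3 members for replicates 1 to 3, against 0.826% to 1.53%. Outside 7 dpa, a low value can widen the gap that chose the members, and a high one can narrow it. The members were chosen on these same libraries, so nothing is read from these counts.

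**Figure D3:**
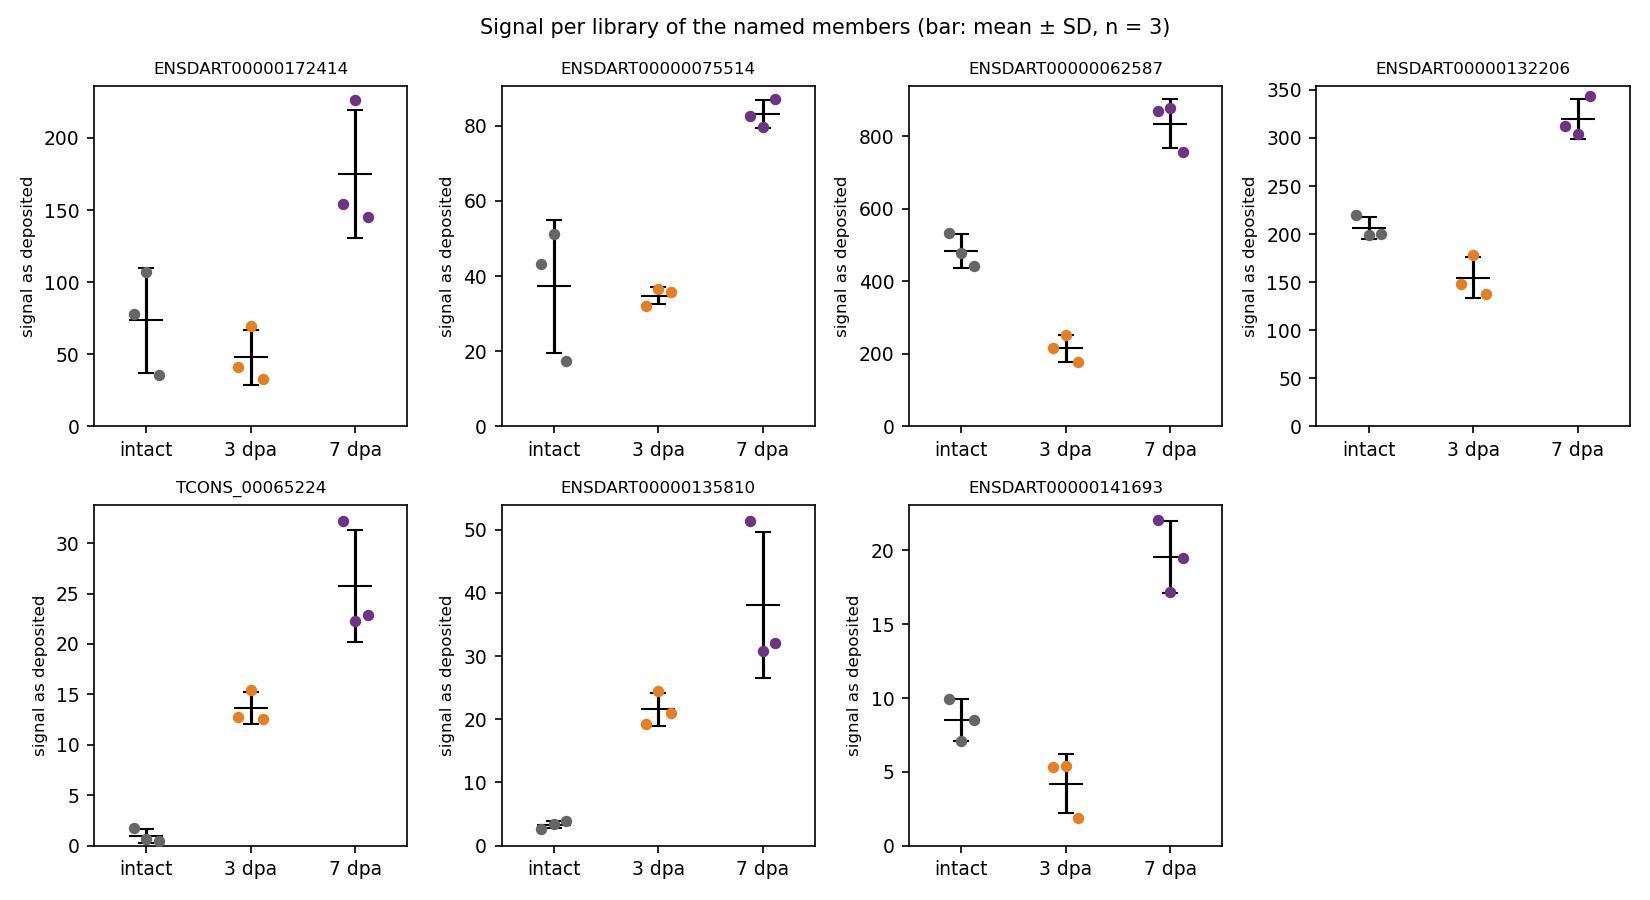
Signal as deposited in every library for the 7 members named by rule, with the mean and SD of each group (n = 3). Each linear axis starts at 0, and in every panel the 3 libraries at 7 dpa lie above the 6 others.

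The comparison of 3 dpa with intact fin asked what the members did before 7 dpa. The rule bounds both groups from above but does not fix which of them is higher. Of the 80 members, 8 rose at 3 dpa, 9 fell and 63 were not called. An unadjusted limma p under 0.05 was reached by 20 members. Over all tested transcripts it was reached by at least the 50.0% that were called, and the exact share was not computed. Calls thus covered 21.25% of the members, and 50.0% of all tested transcripts were called, 22.0% higher and 28.0% lower. The median log2 change at 3 dpa was 0.02 over the members and -0.09 over all tested transcripts. The first turned negative without intact fin replicate 3 (-0.03), 3 dpa replicate 1 or 3 dpa replicate 2 (-0.01 each), and the second was 0.01 with median-ratio factors. Since the members were chosen on these same libraries, the gap between the shares was not tested. All 80 members passed the filter on low values, but 6 of them only through their 7 dpa libraries, 1 of which, ENSDART00000146477, is counted among the 8 rises. Of the 74 others, 7 rose and 9 fell (21.6%).

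The balance of rises and falls depended on scaling, in the members and over all tested transcripts. In the members it also depended on single libraries. With median-ratio factors 15 members rose and 6 fell, while 26.3% of all tested transcripts were called higher and 22.9% lower. With quantile normalization 10 members rose and 6 fell, and the shares over all were 23.3% and 24.8%. Without 3 dpa replicate 1, 7 members rose and 4 fell (18.9% and 24.6% over all), and without 3 dpa replicate 3 the counts were again 7 and 4 (18.7% and 23.7%). Without intact fin replicate 1, 12 members rose and 5 fell (21% and 24.9% over all). Without intact fin replicate 2 the counts were 9 and 5 (21% and 24.3%). Without intact fin replicate 3 they turned to 7 and 11 (20.5% and 24.5%). In the plain order of libraries, every 3 dpa library lay above every intact fin in 12 members (15.0%), while 25.9% of all tested transcripts did so. It lay below in 10 members (12.5%), against 33.3%. In the other 58 members intact fin and 3 dpa libraries overlapped.

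**Figure D4:**
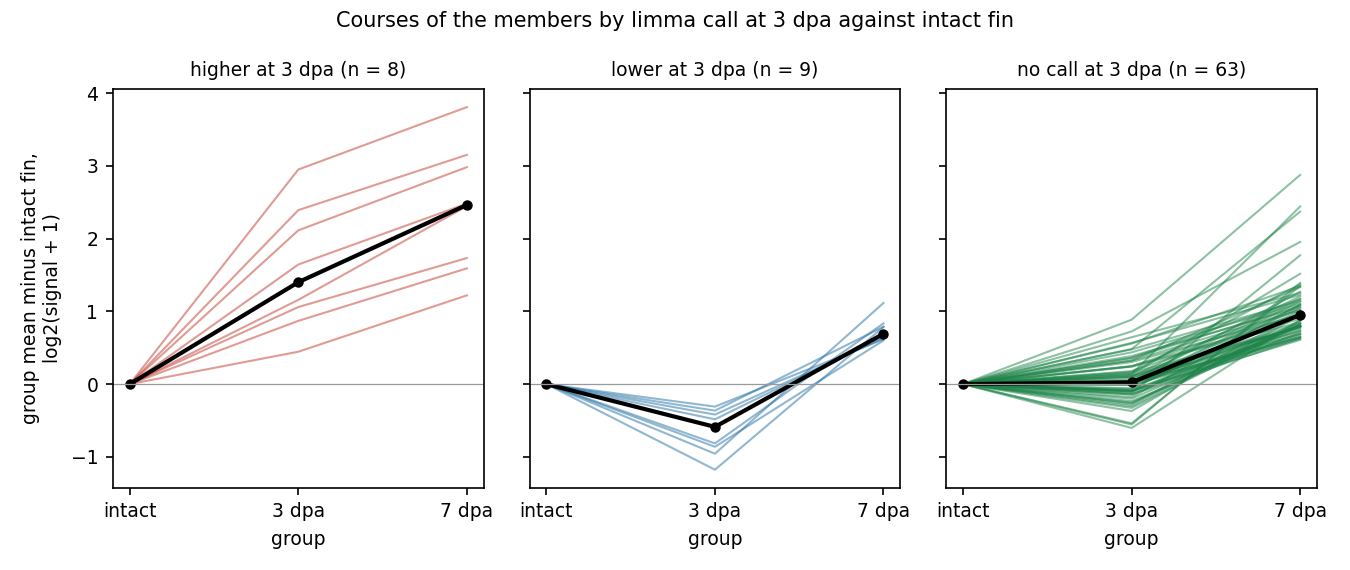
Group means of log2(signal + 1) relative to intact fin for each member, split by limma call at 3 dpa against intact fin. The black line is the median of each panel, at 3 dpa 1.40 in the 8 that rose, -0.59 in the 9 that fell and 0.02 in the 63 without a call.

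Of the 8 members that rose at 3 dpa, 7 climbed in steps, with every 3 dpa library above every intact fin, and in 1 these groups overlapped. Over all tested transcripts, called or not, 25.9% had every 3 dpa library above every intact fin. A call favours such separation, so nothing is read from the 7. The changes of these 8 members at 3 dpa ran from 0.45 to 2.95 on the log2(signal + 1) scale. Their gap from 3 dpa to 7 dpa ran from 0.67 to 1.29, where the rule asks for at least 0.6. The largest gap was that of ENSDART00000146477, which passed the filter only through its 7 dpa libraries, and the next was 0.87. TCONS_00065224 had the largest rise, with signals of 1.74, 0.65 and 0.48 in intact fins, 12.8, 15.5 and 12.6 at 3 dpa and 32.2, 22.3 and 22.8 at 7 dpa. No groups overlapped, and most of the log2 change was already present at 3 dpa (2.95, SE 0.23, limma adjusted p = 1.32e-05). Its 7 dpa mean was 26.9 times the intact fin mean, the largest such fold among members with a signal in intact fin. ENSDART00000135810 had 2.70, 3.37 and 3.85 in intact fins, 19.3, 24.5 and 21.0 at 3 dpa and 51.4, 30.7 and 32.1 at 7 dpa. It moved in the same steps (by 2.39 on the log2 scale at 3 dpa, SE 0.19, limma adjusted p = 1.54e-05), and 7 dpa replicate 1 was well above the other two.

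The other 6 rises had smaller log2 changes at 3 dpa. ENSDART00000163354, chosen like the rest of this paragraph after its values were seen, had 2.34, 1.15 and 0.90, then 8.31, 10.4 and 9.47, then 24.3, 16.6 and 14.1. ENSDART00000054788 had the highest 7 dpa signal of the rises, with 22.8, 18.5 and 15.1 in intact fins, 37.3, 36.8 and 30.4 at 3 dpa and 60.4, 54.8 and 58.6 at 7 dpa. In both, the 3 groups were apart. ENSDART00000146477 was less even, with 0.39, 0.14 and 0.16 in intact fins, 2.47, 0.36 and 3.33 at 3 dpa and 5.83, 4.81 and 6.50 at 7 dpa. Replicate 2 at 3 dpa stood within the range of intact fin for this transcript. Its call at 3 dpa was lost in 5 of 15 alternatives, among them without intact fin replicate 2 or 3 and without 3 dpa replicate 1 or 3 (limma adjusted p from 0.000238 to 0.0954), and the other 7 rises kept their call in every alternative. How often all called transcripts kept theirs was not computed.

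The 9 members that fell at 3 dpa dipped below intact fin, and the rule itself placed their 7 dpa libraries above it. Every 3 dpa library lay below every intact fin in all 9, and in 33.3% of all tested transcripts, called or not. A call favours such separation, so nothing is read from this count. The fall at 3 dpa ran from -1.18 to -0.31 on the log2(signal + 1) scale. The 7 dpa mean lay 0.60 to 1.12 above intact fin, where the rule asks for at least 0.6. Of these 9, 1 was assembled, and of the 8 that rose 3 were. The fall of ENSDART00000062587, described above, was the largest. ENSDART00000141693 had 9.91, 7.11 and 8.54 in intact fins, 5.31, 5.37 and 1.87 at 3 dpa and 22.1, 17.2 and 19.5 at 7 dpa. Its 3 dpa mean rested in part on a low replicate 3 (log2 change -0.96, SE 0.28, limma adjusted p = 0.0200). Without that library the change was -0.58, and without intact fin replicate 1 the call was lost (limma adjusted p = 0.0630, and 0.0144 to 0.0630 over 17 alternatives).

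Members with the same dip included ENSDART00000016616, chosen after its values were seen as the one nearest the bound to intact fin. It had 27.6, 18.1 and 22.6 in intact fins, 13.0, 13.1 and 9.87 at 3 dpa and 36.7, 29.8 and 37.5 at 7 dpa. Its dip was larger than its height above intact fin at 7 dpa, which is small by this choice, and its call was kept in all 17 alternatives. Of the 9 falls, 3 kept their call in every alternative and 6 lost it in at least 1. The share of all called transcripts that kept their call was not computed, so nothing is read from these counts or from those of the rises. Falls were lost most often without intact fin replicate 1 (6 of the 9) and without 3 dpa replicate 1 or replicate 3 (5 of the 9 each). Over all tested transcripts, 46%, 43.5% and 42.4% were called in these settings, in the same order, against 50.0% with all libraries.

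The 63 members without a call at 3 dpa were the largest of these 3 sets. In 5 of them every 3 dpa library lay above every intact fin, in 1 every one lay below, and in the other 57 the groups overlapped. Over all tested transcripts, called or not, the first 2 shares were 25.9% and 33.3%. The lack of a call favours overlap, so nothing is read from these counts. A missed call does not show that the 3 dpa and intact fin values were the same. Their log2 change at 3 dpa ran from -0.60 to 0.89, and the gap to the nearer group from 0.61 to 2.30. ENSDART00000127628, chosen after its values were seen for its even replicates at 7 dpa, had 9.82, 8.96 and 8.17 in intact fins, 10.1, 13.1 and 7.93 at 3 dpa and 24.6, 24.3 and 25.6 at 7 dpa. ENSDART00000010580 had 6.32, 5.54 and 5.58, then 5.32, 5.55 and 4.24, then 14.3, 12.6 and 13.9. In both, intact fin and 3 dpa overlapped and every 7 dpa library was well above them. ENSDART00000101261 had the highest 7 dpa signal of these 63, with 63.0, 70.4 and 25.7 in intact fins, 73.9, 87.6 and 81.8 at 3 dpa and 218, 160 and 200 at 7 dpa. Its 3 dpa libraries all lay above the intact fins, and the low intact fin replicate 3 widened the spread of that group.

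The largest gaps belonged to members with libraries listed at 0. The 4 members with a gap over 1.5 were chosen after their values were seen. ENSDART00000025451 was listed at 0, 0 and 5.43 in intact fins and at 0, 0 and 7.60 at 3 dpa, with 9.46, 8.80 and 9.07 at 7 dpa. The libraries of both lower groups thus fell into zeros and values near the 7 dpa signal, and its gap of 2.30 is a mean over the 2 kinds. TCONS_00037358 stood at 0 in every intact fin and at 0, 0 and 5.31 at 3 dpa, with 7.50, 5.74 and 5.91 at 7 dpa. It has the same form, since 3 dpa replicate 3 was close to the 7 dpa libraries.

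ENSDART00000083033 also stood at 0 in every intact fin and had 0, 1.72 and 0 at 3 dpa, with 2.67, 2.70 and 9.21 at 7 dpa. Its 7 dpa mean was carried by replicate 3, which was 3.45 times the lowest library of its group. ENSDART00000102091 was listed at 0, 1.95 and 0 in intact fins and at 1.30, 0 and 0 at 3 dpa, with 4.36, 3.14 and 4.29 at 7 dpa. An exact 0 in such a table can be a failed estimate of a transcript that shares reads with others, so no fold is given against these groups. In all, 7 members had a 0 in at least 1 of the 6 lower libraries, 2 of them in all intact fins and 1, ENSDART00000122829, in all 3 dpa libraries.

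Within 7 dpa the highest signal was 1.30 times the lowest at the median of the members, and 1.24 times over all transcripts with a mean 7 dpa signal of at least 3. The rule keeps out members with a low 7 dpa library, so this spread is only a description. It was under 1.2 times in 26 members and at least 2 times in 4. These 4 were ENSDART00000083033, ENSDART00000122829, TCONS_00020449 and ENSDART00000137216, with a mean 7 dpa signal of 3.07 to 5.61. ENSDART00000137216 had 4.02, 4.23 and 8.58 at 7 dpa, so replicate 3 stood apart there, and TCONS_00020449 had 5.19, 2.02 and 2.45, where replicate 1 did. Replicate 1 was the highest of the 7 dpa libraries in 37 members, replicate 3 in 26 and replicate 2 in 17. The mRNA totals of these libraries had the same order, at 428538, 426347 and 406536. The shares over all transcripts were not computed, so nothing is read from these counts. Among the 6 other libraries, 3 dpa replicate 2 was the highest in 21 members and intact fin replicate 2 in 20, so the library nearest to 7 dpa came from both groups.

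For the contrasts that the rule used, limma called 69 of the 80 members higher at 7 dpa than in intact fin, where 12.4% of all tested transcripts were called higher. It called 62 higher at 7 dpa than at 3 dpa, where 11.2% were. Both calls were met by 60 members, and by at most the 11.2% of all tested transcripts called higher than at 3 dpa. Neither was met by 9 members, and that share over all tested transcripts was not computed. These comparisons share the 7 dpa libraries with each other and with the choice of members, and nothing is read from the counts. Without 3 dpa replicate 1, 41 members were called in the second contrast, and 7.98% of all tested transcripts were called higher.

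Membership itself moved with single libraries. Leaving out 1 library and applying the rule to the other 8 gave 75 to 127 transcripts, and 37 of the 80 members met the rule in all 9 such cases. With 1 library fewer, the separation of libraries is easier to meet, so a rise in number can be built into the rule. Without 7 dpa replicate 1, 2 or 3 the rule was met by 111, 127 and 110 transcripts, of which 63, 72 and 67 were members. Of the 80, 67 met the rule under all 4 of a pseudocount of 0.1, quantile normalization, an equal mRNA total and median-ratio factors.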

How the data were processed

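The mRNA and lncRNA tables, as deposited by the authors, give each transcript a signal in each library, written to 2 decimals. FPKM or TPM is not given as its unit in the sources used here. The submitters' processing notes list RSEM, edgeR, cutadapt and TopHat2 2.0.3.12 without saying what each did, and name hg38, a human build. No coordinates were used, and the circRNA table was not used.

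Members were found by the rule with Python 3.11.15. The members, gene lists and comparisons were chosen with earlier results of these data known. In R 4.3.3, limma 3.58.1 with a trended and robust prior was fitted to log2(signal + 1) of all transcripts with a signal of at least 1 in at least 3 libraries, with 9 libraries in one model and 3 contrasts. Tests were two-sided, and a call is a Benjamini-Hochberg adjusted p under 0.05 over all transcripts that passed this filter. The script was tested on simulated data. Named members are the 2 with the largest gap at a mean 7 dpa signal of at least 10, the 2 of highest 7 dpa signal, and the 2 largest called rises and falls at 3 dpa with groups apart and at least 3 as the mean of the higher group, which gave 7 transcripts since 1 was picked under 2 headings. The 15 gene lists of fin cell types and pathways were not used, since no transcript ID could be paired with a gene name. Alternatives changed the pseudocount, filter, scaling, samples, robust setting, replicate block and single libraries.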

Additional observations from a re-analysis of the deposited data

How the results depend on the processing

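No member called at 3 dpa changed sign, but the balance of 8 rises and 9 falls turned to 15 and 6 with median-ratio factors and to 10 and 6 with quantile normalization. The shares over all tested transcripts moved too, from 22.0% higher and 28.0% lower to 26.3% and 22.9%, and to 23.3% and 24.8%. The member balance was 12 rises and 5 falls without intact fin replicate 1 (21% and 24.9% over all). It was 9 and 5 without intact fin replicate 2 (21% and 24.3%), and 7 and 11 without intact fin replicate 3 (20.5% and 24.5%). The 80 members became 20 with a smallest log2 difference of 1, 41 with a minimum 7 dpa mean of 10 and 107 with one of 1. They numbered 99 with a pseudocount of 0.1, 86 with quantile normalization, 82 with an equal mRNA total and 74 with median-ratio factors, and 75 to 127 without single libraries. Leaving out a library also makes the bound on separation easier to meet. The 17 member calls at 3 dpa ranged from 11 to 18 without single libraries, the 69 at 7 dpa against intact fin from 46 to 70, and the 62 at 7 dpa against 3 dpa from 41 to 68. The share of all tested transcripts called at 3 dpa, 50.0%, then ranged from 42.4% to 50.4%. The share called higher at 7 dpa ranged from 9.33% to 11.6% against intact fin (12.4% with all libraries). Against 3 dpa it ranged from 6.65% to 11.3% (11.2% with all libraries). With a minimum signal of 5, 16 of the 55 members tested were called at 3 dpa. Over all tested transcripts it was 8169 of 12567 (65%), against 12499 of 25001 (50.0%) in the main fit. With no filter, 13 of the 80 members were called, and 12397 of 47172 tested transcripts (26.3%). At 7 dpa against 3 dpa, 3230 of 24613 tested transcripts (13.1%) were called without 3 dpa replicate 3, against 5423 of 25001 (21.7%). The assembled share of members, 25%, ranged from 19.7% (without 7 dpa replicate 2) to 32.4% (without 7 dpa replicate 1) over 16 alternatives. In alternatives chosen after seeing the data, the transcripts highest at 3 dpa and in intact fin numbered 415 and 460 with a log2 difference of 1, 1659 and 1171 with median-ratio factors, and 1252 and 1352 with quantile normalization. Replicate numbers are shared across groups. Deviations of same-numbered libraries correlated at -0.023 to 0.0706 (9 pairs), and those of differently numbered libraries at -0.114 to 0.0558 (18 pairs). Not every library correlated best with its own number. The labels do not say whether same-numbered libraries share a fish or a batch, and these correlations cannot decide it. With the replicate block, 15 members were called at 3 dpa, 64 at 7 dpa against intact fin and 61 at 7 dpa against 3 dpa. Over all tested transcripts 47.6% were then called at 3 dpa. The shares called higher at 7 dpa were 10.9% against intact fin and 9.53% against 3 dpa. Depth is unknown, so the precision of low signals cannot be given.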

Other observations

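Transcripts highest at 7 dpa were also sought among long non-coding RNAs. Of the 240 lncRNAs with a mean 7 dpa signal of at least 3, the same rule found 3 (1.25%), all of them assembled, and they were chosen after their values were seen. The assembled share of the 240 was not computed. TCONS_00059967 read 2.74, 1.85 and 1.76 in intact fins, 1.58, 2.74 and 2.14 at 3 dpa and 6.68, 7.98 and 4.94 at 7 dpa. TCONS_00059970 had 2.1, 1.2 and 1.05, then 1.71, 1.66 and 1.73, then 5.34, 4.08 and 2.82. TCONS_00029129 had 2.77, 3.07 and 1.73 in intact fins, 1.85, 2.03 and 2.37 at 3 dpa and 3.88, 6.37 and 3.93 at 7 dpa, with replicate 2 apart at 7 dpa. In all 3, intact fin and 3 dpa overlapped, and the 7 dpa libraries spread by more than 1.5 times. Whether the lncRNA and mRNA tables were scaled together is not given. The share of 1.25% was not tested against the 0.537% of mRNAs (80 of 14884).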
